A study of Mus musculus with 44 samples.

Results

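Heparan sulfate proteoglycans and the enzymes that build or edit their sugar chains were followed in sorted mouse calvarial osteoblast cultures. The 10 genes were the endosulfatase Sulf1, the chain polymerase genes Ext1 and Ext2, the syndecans Sdc1, Sdc2, Sdc3 and Sdc4, and the glypicans Gpc1, Gpc3 and Gpc4, out of 15964 genes named on the arrays. They were chosen by name, with the fall of Sulf1 between the days in GFP-positive cells already known. All 27 probe sets that carry one of these symbols were taken, 11 on array A, 7 on B and 9 on C. Values from GFP-positive cells on day 17 against day 7 are therefore given as description only, and so are all values of Sulf1 that involve GFP-positive cells.

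The cultures came from the calvaria of newborn mice, 7 days old per the labels, and carried green fluorescent protein (GFP) under a fragment of a type I collagen promoter. The day 17 cultures carried pOBCol2.3GFP and were given beta-glycerophosphate with ascorbic acid from day 7 on, while the day 7 cultures carried pOBCol3.6GFP and grew in DMEM with 10% FCS without additions. Day, transgene and additions changed together and cannot be told apart. The 6 groups were day 17 GFP-positive, day 17 GFP-negative and day 17 unsorted cells (Exp100, Exp105 and Exp106) and day 7 GFP-positive, day 7 GFP-negative and day 7 unsorted cells (Exp99, Exp101 and Exp103), with 3 RNA samples each. As background, the shorter promoter fragment is active in differentiated osteoblasts and the longer one from an earlier stage on, so the GFP-positive fractions of the 2 days are not the same gate. The labels do not say how many animals went into an experiment, so p-values cover the spread among the samples as given, which may be technical.

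Heparan sulfate is a long sulfated sugar chain that cells attach to core proteins of the membrane and matrix. Syndecans cross the membrane and glypicans are held to it by a lipid anchor. The chains bind growth factors such as FGFs, BMPs, Wnts and hedgehog proteins, and the pattern of sulfate groups influences which ligand is held. Ext1 and Ext2 form the complex that elongates the chain, and loss of either gene in humans causes multiple osteochondromas. Sulf1 acts outside the cell on finished chains, where it removes sulfate from the 6-O position of glucosamine.

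Of the 4 syndecans, 3 have an entry in the RefSeq promoter table, and their last 120 bases before the annotated start (build GRCm38.p6) are shown as background. A link between these sequences and the values below was not tested. Capitals mark TATAA and the GC box GGGCGG, searched on both strands, so CCGCCC is a GC box read on the other strand. In Sdc1 the letters TTATAA hold TATAA on both strands, overlapping. The windows are chr12:8771276-8771395 (plus strand) for Sdc1, chr4:130792417-130792536 (plus strand) for Sdc3 and chr2:164443189-164443308 (minus strand) for Sdc4.
Sdc1: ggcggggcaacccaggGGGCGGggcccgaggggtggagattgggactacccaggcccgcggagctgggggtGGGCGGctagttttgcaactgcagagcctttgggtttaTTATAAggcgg
Sdc3: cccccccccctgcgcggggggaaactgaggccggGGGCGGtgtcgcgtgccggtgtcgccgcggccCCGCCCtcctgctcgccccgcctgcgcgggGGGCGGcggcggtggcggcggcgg
Sdc4: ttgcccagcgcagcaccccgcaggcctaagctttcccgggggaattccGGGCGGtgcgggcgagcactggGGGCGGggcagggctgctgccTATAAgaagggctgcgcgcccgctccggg

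All 3 windows held GC boxes, 2 in Sdc1, 3 in Sdc3 and 2 in Sdc4. TATAA was present in Sdc1 and Sdc4, and these letters were not in the Sdc3 window. Among 32851 promoters of the same table and length, 11.8% held TATAA and 26.5% held a GC box. Gpc3, Gpc4 and Ext2 also had entries, of which Gpc3 held 3 GC boxes and the others neither motif. Sulf1, Gpc1, Sdc2 and Ext1 had no entry.

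The array values are intensities, quantile normalised among arrays of one type after adding 32 and taking log2. Testing required a value over the median of the array on 3 or more arrays, which 21 of the 27 passed in the fit of the 12 sorted samples, covering all 10 genes. In the array A fit of all 18 samples, 9 of 11 passed, covering 8 genes, since Sulf1 lies on B and the tested Sdc3 probe set on B as well. The 6 probe sets that did not pass (2 for Gpc1 and 1 each for Sdc2, Sdc3, Sdc4 and Ext2) lay mostly below their array's median, with 12 to 134 for Sdc2 162215_f_at. Different probe sets bind RNA unequally, so levels are compared between samples and never between genes. Each sample is RNA of many cells, and fewer cells of a type cannot be told apart from less RNA per cell.

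Some features of the samples touch what follows. The arrays of Exp106 stood apart, with a mean correlation to the other arrays of 0.839, 0.772 and 0.770 on A, B and C, against 0.943, 0.900 and 0.813 among the others, so results are also given without that experiment. The summed level of 17 macrophage markers ranged over 23788 to 96576 in day 17 GFP-positive, 77273 to 130321 in day 17 GFP-negative, 7202 to 8326 in day 7 GFP-positive and 14842 to 39144 in day 7 GFP-negative samples. The summed level of 9 fibroblast markers was 112079 to 137443, 205340 to 261068, 111974 to 130402 and 103819 to 130661 in the same order. The 6 osteoblast markers on the arrays summed to 323005 to 372968 in day 17 GFP-positive and 260850 to 278211 in day 17 GFP-negative samples, and to 97216 to 164710 and 82451 to 209188 in the day 7 fractions. Of 12 skeletal muscle markers 7 passed the filter and of 6 endothelial markers 1. The part of these markers in the results below was not tested.

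Sulf1 was lowest in day 17 GFP-positive cells. By probe set 113914_at its normalised intensity was 154, 548 and 559.8 in day 17 GFP-positive cells, against 1213, 2051 and 2000.0 in day 17 GFP-negative cells. On day 7 the values were 11554, 7242 and 6115 in GFP-positive and 12420.1, 3835 and 3222 in GFP-negative cells. The 2 groups of day 17 did not overlap with each other or with day 7, while the 2 groups of day 7 did.

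The second Sulf1 probe set, 116019_at, gave 723, 169 and 117 in day 17 GFP-positive and 808, 1747 and 1632 in day 17 GFP-negative cells. Its day 7 values were 9526, 4047 and 2794 in GFP-positive and 8075, 3025 and 2196 in GFP-negative cells. Both probe sets thus put the groups in the same order. Over the 12 sorted samples their log2 values correlated with Pearson's r = 0.87.

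**Figure D1:**
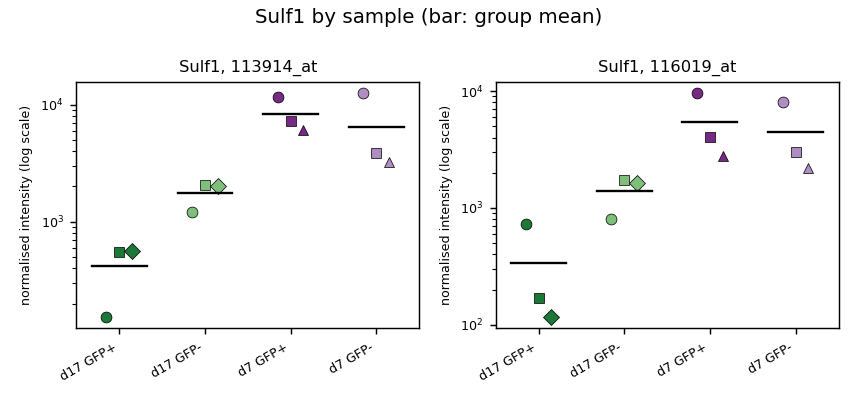
Normalised intensity (log scale) of Sulf1 in each sorted sample, 1 panel per probe set, with points for experiments and bars for group means (n = 3 each; d, day; GFP+ and GFP-, the sorted fractions). By 113914_at the day 17 GFP-positive samples lie between 154 and 559.8, below the day 17 GFP-negative samples at 1213 to 2051 and all day 7 samples at 3222 or above.

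The mean level of 113914_at was 421 ± 231 in day 17 GFP-positive, 1755 ± 470 in day 17 GFP-negative, 6492 ± 5143 in day 7 GFP-negative and 8304 ± 2871 in day 7 GFP-positive cells (SD, n = 3). In this order the day 7 groups are neighbours that overlap in their values. In GFP-positive cells, the contrast that chose the gene, the log2 difference of day 17 minus day 7 was -4.33 ± 0.55 (SE) by 113914_at and -4.08 ± 0.67 by 116019_at. Without Exp106 the same differences were -4.64 and -3.65.

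The change of Sulf1 with the day can be tested in GFP-negative cells, whose values did not choose the gene. The spread in that test was estimated over all sorted groups, GFP-positive cells included, so it is not wholly independent of the choice. In GFP-negative cells the log2 difference of day 17 minus day 7 was -1.63 ± 0.55 and -1.49 ± 0.67. Every day 17 value lay below every day 7 value of the same probe set. The difference did not pass in limma after adjustment over all 22099 probe sets (adjusted p = 0.287 and 0.442, unadjusted p = 0.0122 and 0.0468). Without Exp106 it was -1.73 and -1.65 (limma adjusted p = 0.227 and 0.341).

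Between the fractions of day 17, the log2 difference of GFP-positive minus GFP-negative cells for Sulf1 was -2.12 ± 0.55 and -2.26 ± 0.67, and without Exp106 it was -2.34 and -1.68. At day 7 it was 0.58 ± 0.55 by 113914_at and 0.33 ± 0.67 by 116019_at. Taken within each experiment, 113914_at differed by -2.74, -1.85 and -1.78 in Exp100, Exp105 and Exp106 and by -0.10, 0.91 and 0.92 in Exp99, Exp101 and Exp103. By 116019_at the experiments of day 17 were less alike, at -0.15, -3.14 and -3.48, and Exp100 gave 723 in GFP-positive against 808 in GFP-negative cells. The fibroblast marker sum was lower in GFP-positive than in GFP-negative cells in all 3 experiments of day 17. The macrophage sum was lower in Exp100 and Exp105, and in Exp106 it was 96576 in GFP-positive against 77273 in GFP-negative cells. The part of these markers in the Sulf1 values was not tested.

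The genes whose log2 values most resembled those of Sulf1 113914_at over the 12 sorted samples were Lpar4, a receptor for lysophosphatidic acid (Pearson's r = 0.965), Cav1, the coat protein of caveolae (0.960), Akap2, an anchor of protein kinase A (0.956), Hmga2, a chromatin protein of growing mesenchymal cells (0.952), and Basp1 (0.952). The 12 samples fall into 4 groups by day and sort, so the correlations are descriptions of that layout.

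Across the members, no difference between the sorted fractions passed in limma in the fit without a replicate block. At day 7 GFP-positive against GFP-negative cells, 0 of 21 member probe sets were called in limma (adjusted p under 0.05) and 0 had an unadjusted p under 0.05, and of all 22099 probe sets 0% were called (395 had an unadjusted p under 0.05). At day 17, 0 of 21 were called, beside 1.29% of all. An unadjusted p under 0.05 was found for 3 of 21 members, beside 2333 of all 22099 probe sets. These 3 were Sdc4 109816_s_at and both Sulf1 probe sets, of which the Sulf1 entries are description. With experiment as a fixed replicate block 2 of 21 were past the threshold, Gpc1 104614_at and, as description, Sulf1 113914_at, beside 3.22% of all (712 probe sets). With a random replicate block Gpc1 104614_at did not pass (adjusted p = 0.117 with an estimated correlation). For the difference between the GFP effects of the 2 days, 0 of 21 were called, beside 0.222% of all. An unadjusted p under 0.05 was found for 4 of 21, beside 1323 of all 22099. These 4 were Sdc2, Ext1 133682_at and, as description, both Sulf1 probe sets. The fixed replicate block put 1 of 21 past the adjusted threshold, Sulf1 113914_at, as description, beside 0.48% of all. For GFP-negative cells of day 17 against day 7, 0 of 21 were called, beside 0.434% of all. An unadjusted p under 0.05 was found for 5 of 21, beside 2442 of all 22099. These 5 were both Sulf1 probe sets, Gpc3, Sdc2 and Sdc4 109816_s_at.

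In GFP-positive cells of day 17 against day 7, 4 of 21 were past the threshold, beside 4.82% of all, and nothing is read from that count because this contrast chose the genes. They were both Sulf1 probe sets and Sdc4 109816_s_at, lower, and Sdc3 109737_at, higher. Sdc3 was not past it with no filter or on leaving out the GFP-positive sample of Exp99, Exp100, Exp101, Exp103 or Exp105, and Gpc1 104614_at was past it without Exp106. In unsorted cells of day 17 against day 7, 1 of 9 was called, Sdc2, beside 5.71% of the 7455 probe sets tested on array A. Where unsorted cells were set against the average of both sorted fractions, 0 of 9 were called at day 7 (0% of all) and 0 of 9 at day 17 (1.6% of all). An unadjusted p under 0.05 was found for 0 of 9 on both days, beside 59 (day 7) and 1073 (day 17) of all 7455. The fixed replicate block called 920 of all at day 17 in place of 119, and 0 of 9 members.

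**Figure D2:**
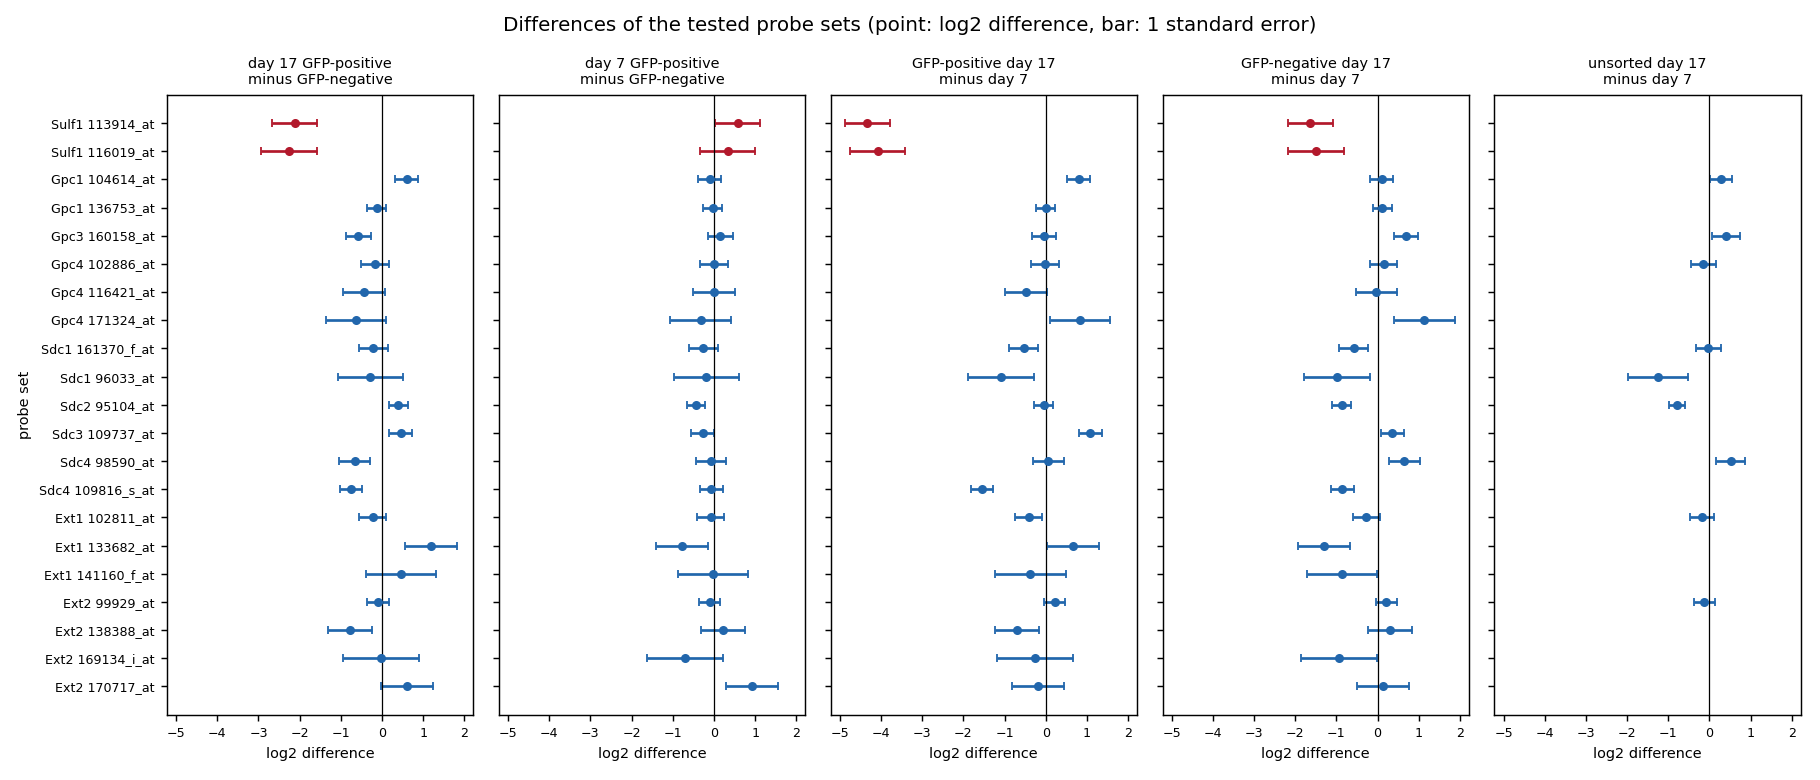
Log2 differences (points) with 1 standard error (bars) of the 21 tested probe sets in 5 comparisons, Sulf1 in red and the other members in blue. The Sulf1 points lie at -2.12 and -2.26 between the day 17 fractions, at -4.33 and -4.08 between the days in GFP-positive cells and at -1.63 and -1.49 in GFP-negative cells; the last panel holds 9 probe sets of array A.

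Each polymerase gene is described first by its array A probe set. Ext1 102811_at gave 1458, 1634 and 1032 in day 17 GFP-positive, 1304, 1423 and 2141 in day 17 GFP-negative and 1856, 1556 and 1783 in day 17 unsorted cells. The day 7 samples gave 2567, 1319.8 and 1750.3 in GFP-positive, 2354, 1574 and 1899.6 in GFP-negative and 2637, 1844 and 1538 in unsorted cells. All groups overlapped with the same fraction of the other day.

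Ext1 also had 2 probe sets on array C. In 133682_at the day 17 fractions did not overlap, with 579, 885 and 709 in GFP-positive and 519.8, 107 and 425 in GFP-negative cells. The log2 difference was 1.19 ± 0.63 (limma adjusted p = 0.577). The same probe set gave 728, 155 and 716 in day 7 GFP-positive and 729, 869.7 and 744 in day 7 GFP-negative cells. In 141160_f_at values ran from 810.2 to 5655 with an overlap of all groups, and its correlation over 12 samples was 0.14 with 133682_at and 0.44 with 102811_at. The correlation of 102811_at with 133682_at was 0.30.

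Ext2 99929_at gave 3339, 3457 and 2376 in day 17 GFP-positive, 3315, 3114 and 3268 in day 17 GFP-negative and 3765, 3179 and 1936 in day 17 unsorted cells. In the day 7 samples it gave 2593, 2626 and 2566 in GFP-positive, 2596, 2090.3 and 3981 in GFP-negative and 2924, 3274 and 3177 in unsorted cells. The groups of the 2 days overlapped in each fraction. The 3 tested array C probe sets of Ext2 were more variable, from 148 to 2226, and none was called in limma in the comparisons tested, with adjusted p from 0.715 upward between the day 17 fractions.

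Among the syndecans, Sdc2, a core protein typical of mesenchymal cells, was the 1 member called with the day in whole cultures, where 6 of the 9 tested probe sets had negative differences. Its probe set 95104_at gave 3824, 4119 and 4536 in day 17 unsorted cells, against 6857, 7479 and 7295 in day 7 unsorted cells. The groups did not overlap, and the log2 difference was -0.79 ± 0.19 (limma adjusted p = 0.0259), a level of 0.578 times that of day 7. The call was lost with values as deposited, with a random replicate block and on leaving out any of the unsorted samples Exp99, Exp101, Exp103, Exp100 or Exp105 (adjusted p from 0.0529 to 0.0951), while without Exp106 altogether the difference was -0.85 (adjusted p = 0.00168). In the same comparison 11 of 15 tested macrophage markers were called higher, with a median log2 difference of 2.86 against -0.09 over all probe sets. Of the other lists, 3 of 5 osteoblast and 2 of 8 fibroblast markers were called higher, 3 of 8 skeletal muscle markers were called lower, and 0 of 1 endothelial marker was called. The part of these markers in the Sdc2 value was not tested.

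In sorted cells the Sdc2 values of the days were apart in GFP-negative cells and overlapped in GFP-positive cells. GFP-negative cells gave 4150.2, 5171 and 2809.9 at day 17, against 7363, 7419.8 and 6836 at day 7, a log2 difference of -0.87 ± 0.23 without overlap that did not pass in limma (adjusted p = 0.160, without Exp106 -0.62 and 0.0825). GFP-positive cells gave 4854, 5187 and 5429.6 at day 17 and 5002, 5111 and 5884 at day 7, which overlap. At day 7 the GFP-positive values lay below the GFP-negative ones in all 3 experiments, with a log2 difference of -0.44 ± 0.23 (limma adjusted p = 1). The summed level of the 12 skeletal muscle markers at day 7 was 3602 to 4260 in GFP-positive and 6369 to 9201 in GFP-negative cells. That of the 17 macrophage markers was 7202 to 8326 and 14842 to 39144 in the same order. The fibroblast, osteoblast and endothelial sums of these fractions overlapped. At day 17 the muscle sums were 3530.3 to 9877 and 3078 to 9318 in the same order. The macrophage sums were then 23788 to 96576 and 77273 to 130321. The part of these markers in the Sdc2 values was not tested. The difference between the GFP effects of the 2 days was 0.83 ± 0.32, with an unadjusted p = 0.0249 and a limma adjusted p = 0.693, and without Exp106 it was 0.54.

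Sdc3, a syndecan with a long extracellular domain studied mainly in nerve and muscle, was brightest in day 17 GFP-positive cells. Probe set 109737_at gave 25664, 24265 and 15538 in day 17 GFP-positive and 16299, 19759.8 and 11717 in day 17 GFP-negative cells. At day 7 it gave 10509, 12075 and 8051 in GFP-positive and 13426, 14302 and 9332 in GFP-negative cells. Day 17 GFP-positive cells did not overlap with day 7 GFP-positive cells, with a log2 difference of 1.08 ± 0.28, or 1.24 without Exp106, given as description.

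Within experiments the sign of the Sdc3 difference between fractions followed the day. GFP-positive minus GFP-negative was 0.65, 0.30 and 0.41 in Exp100, Exp105 and Exp106, and -0.35, -0.24 and -0.21 in Exp99, Exp101 and Exp103. In the fit the day 17 difference was 0.45 ± 0.28 (limma adjusted p = 0.665), and the difference between the effects was 0.72 ± 0.39 (adjusted p = 0.963), neither of which passed. The second Sdc3 probe set, 98847_at, gave 82 to 541 and did not pass the filter.

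Sdc4, a broadly expressed syndecan of focal adhesions, gave values that depended on the probe set. By 109816_s_at it was 6573, 7096 and 4409 in day 17 GFP-positive and 10028, 11318 and 8708 in day 17 GFP-negative cells. At day 7 the same probe set gave 19224, 15149.9 and 17702 in GFP-positive and 27048, 16494 and 13251 in GFP-negative cells. By this probe set GFP-positive lay below GFP-negative cells at day 17, and each fraction of day 17 lay below the same fraction of day 7, in all cases without overlap.

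The log2 differences of 109816_s_at were -0.75 ± 0.28 between the day 17 fractions (limma adjusted p = 0.302), -0.86 ± 0.28 for GFP-negative cells of day 17 minus day 7 (adjusted p = 0.257) and -1.54 ± 0.28 for GFP-positive cells, the last as description. Without Exp106 they were -0.61, -0.72 and -1.28. The array A probe set 98590_at gave 1172, 1319 and 2014 in day 17 GFP-positive, 1619, 1723 and 4500.1 in day 17 GFP-negative and 1952, 2016 and 3644 in day 17 unsorted cells. The day 7 samples gave 1604, 1347 and 1277 in GFP-positive, 1643, 1353 and 1446 in GFP-negative and 1728, 1965 and 1429.5 in unsorted cells.

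For GFP-negative cells of day 17 minus day 7, 98590_at thus had the opposite sign to 109816_s_at, with a log2 difference of 0.65 ± 0.37 that was 0.18 without Exp106. The probe sets correlated at -0.22 over the 12 sorted samples. The direction of Sdc4 with the day is therefore uncertain, while both probe sets put the day 17 GFP-positive mean below the GFP-negative one (-0.66 ± 0.37 by 98590_at, adjusted p = 0.619).

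Sdc1, a syndecan best known from epithelia and plasma cells, had 2 tested probe sets on array A. Of these, 96033_at gave 490.1, 495 and 59.8 in day 17 GFP-positive, 446, 768 and 87 in day 17 GFP-negative and 498, 412 and 109 in day 17 unsorted cells. In the day 7 samples it gave 892, 425 and 537 in GFP-positive, 837, 564 and 647 in GFP-negative and 888, 777 and 568 in unsorted cells. In each fraction of day 17 the lowest value was that of Exp106, and the log2 difference of GFP-negative cells was -0.98 ± 0.79 with it and -0.20 without it. In unsorted cells the days did not overlap, with a difference of -1.25 ± 0.73 (limma adjusted p = 0.321), or -0.67 without Exp106.

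The second Sdc1 probe set, 161370_f_at, gave 518, 612 and 375 in day 17 GFP-positive and 643, 679 and 435 in day 17 GFP-negative cells, against 872, 626 and 713 in day 7 GFP-positive and 1121, 799.8 and 754 in day 7 GFP-negative cells. Each day 17 fraction lay below the same fraction of day 7 without overlap. The GFP-negative log2 difference was -0.58 ± 0.35 (limma adjusted p = 0.586). In unsorted cells this probe set overlapped between the days, with 574, 604 and 906 at day 17 and 900.0, 496 and 743 at day 7.

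**Figure D3:**
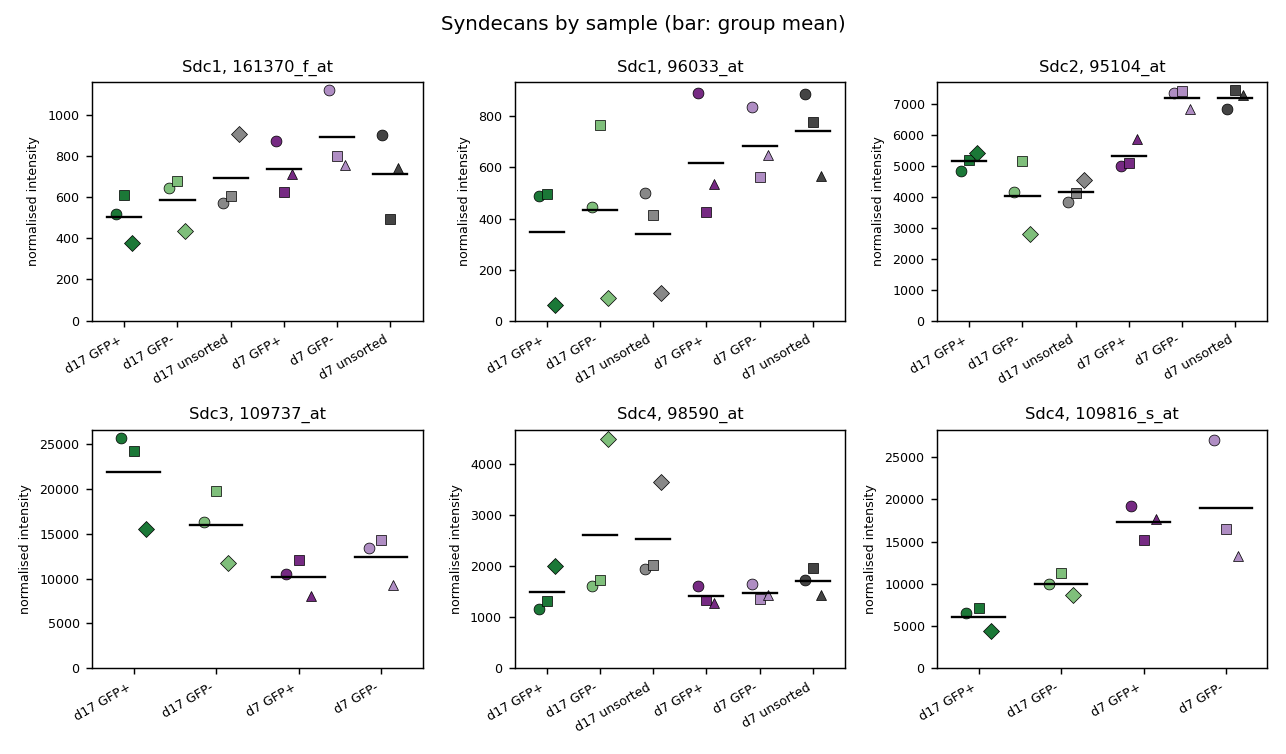
Normalised intensity of the tested syndecan probe sets in each sample (points) with group means (bars, n = 3 each), day 17 left of day 7 and GFP-positive left of GFP-negative. Sdc2 lies at 3824 to 4536 in day 17 unsorted and 6857 to 7479 in day 7 unsorted samples; the Sdc4 panels differ in direction, and diamonds mark Exp106.

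Among the glypicans, Gpc1, a glypican of many tissues, brain and skeleton among them, was bright in all samples. By 104614_at it gave 22453, 22453 and 14196 in day 17 GFP-positive, 13374, 15515 and 9854 in day 17 GFP-negative and 18823, 19260.2 and 13223 in day 17 unsorted cells. At day 7 it gave 10752, 9286 and 13447 in GFP-positive, 12041, 8840.0 and 15764 in GFP-negative and 12257, 17782 and 12353 in unsorted cells. The same quantile-normalised value in Exp100 and Exp105 means that the probe set held the same rank on both arrays.

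In each of the 3 experiments of day 17 the GFP-positive cells had more Gpc1 signal by 104614_at, with log2 differences of 0.75, 0.53 and 0.53. The fitted difference was 0.60 ± 0.28 (limma adjusted p = 0.484). With experiment as a fixed replicate block the adjusted p was 0.0427, and without Exp106 it was 0.0466 with that block and 0.244 without it. The call was lost with a random replicate block (adjusted p = 0.117 with an estimated correlation). The array C probe set 136753_at did not show it, at 17351, 17495 and 10147 in day 17 GFP-positive and 16376, 17740.2 and 14013 in day 17 GFP-negative cells, so the Gpc1 difference rests on 1 probe set.

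Gpc3, whose loss causes an overgrowth syndrome with skeletal changes in humans, gave 2037, 1823 and 1928 in day 17 GFP-positive and 2752, 3396 and 2566 in day 17 GFP-negative cells by 160158_at. The day 7 samples gave 1249, 2285 and 2735 in GFP-positive and 1500.3, 2172 and 1719.8 in GFP-negative cells. Day 17 unsorted cells gave 3339.9, 4119 and 2243, and day 7 unsorted cells gave 1585, 4155 and 1978. The day 17 fractions did not overlap (-0.57 ± 0.30, limma adjusted p = 0.563), nor did GFP-negative cells of the 2 days (0.69 ± 0.30, adjusted p = 0.419), and neither difference passed.

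Without Exp106 the Gpc3 differences were -0.66 between the day 17 fractions and 0.78 for GFP-negative cells with the day. Gpc4 102886_at gave 1354, 1624 and 3192 in day 17 GFP-positive, 1921, 2001 and 2604 in day 17 GFP-negative and 1887, 2069.7 and 2587 in day 17 unsorted cells. In the day 7 samples it gave 1922, 1710.0 and 2258 in GFP-positive, 1961, 1458 and 2577 in GFP-negative and 2162, 3292 and 1952 in unsorted cells. Gpc4 groups overlapped throughout by this probe set, and its correlation with the array B probe set 116421_at was -0.86, so these probe sets ran against each other. That probe set ranged from 284 to 1327 and the array C probe set 171324_at from 110.2 to 1111, and in 171324_at the day 17 GFP-positive values of 822, 819.6 and 321 lay below the GFP-negative ones of 834, 934 and 1111.

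**Figure D4:**
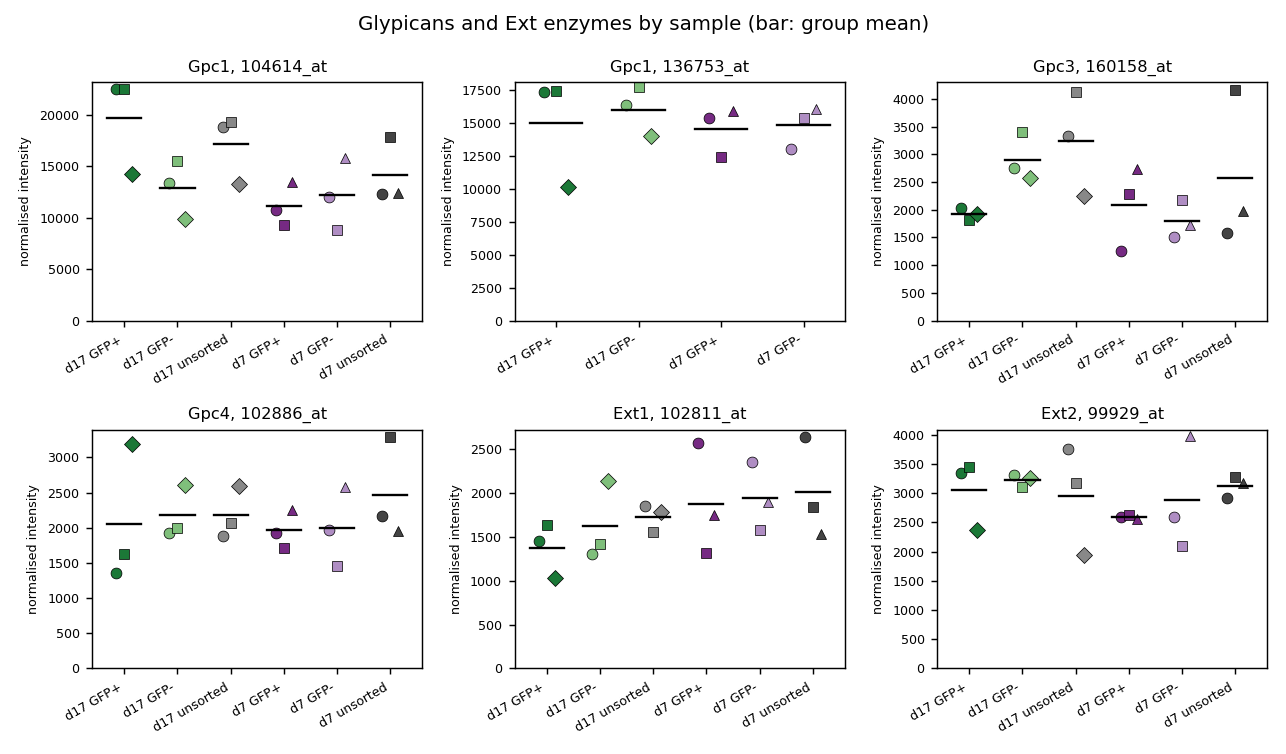
Normalised intensity of 6 glypican and Ext probe sets in each sample (points) with group means (bars, n = 3 each), day 17 left of day 7 and GFP-positive left of GFP-negative. Gpc1 104614_at lies at 14196 to 22453 in day 17 GFP-positive and 9854 to 15515 in day 17 GFP-negative samples, while 136753_at shows no such order.

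The rest of the heparan sulfate pathway was described over 62 further genes in 7 lists (other core proteins, linker enzymes, chain elongation, chain modification, precursor supply, degradation and binding partners), of which 52 were on the arrays and 42 passed the filter in the sorted fit. Between the day 17 fractions 0 of 42 were called, beside 1.29% of all probe sets, with a median log2 difference of -0.10 against -0.01 over all. For GFP-negative cells with the day 0 of 42 were called, beside 0.434% of all, with a median of 0.04 against -0.04. In unsorted cells with the day 0 of 25 were called, beside 5.71% of all (0.03 against -0.09). With shares this small, the counts do not show that these genes were unchanged. In GFP-positive cells with the day, the contrast that chose the members, 2 of 42 were past the threshold, beside 4.82% of all, a share near the background. They were Sdcbp2 at 2.95 and Cask at -0.81, both adaptor proteins that bind the syndecan tail.

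Among the chain modification enzymes other than Sulf1, 8 of 17 were tested in the sorted fit and 3 in the array A fit. In any comparison 0 were called, where the share over all probe sets was 0% to 5.71%. Their median log2 difference between the day 17 fractions was -0.39, against -0.01 over all probe sets. Hs2st1, which adds 2-O-sulfate, gave 633, 738 and 339 in day 17 GFP-positive and 1020.1, 906 and 1038 in day 17 GFP-negative cells, without overlap (-0.83 ± 0.32, limma adjusted p = 0.360). Glce, the epimerase that turns glucuronic into iduronic acid, gave 684, 951 and 1996 in day 17 GFP-positive and 3089, 2574 and 2764 in day 7 GFP-positive cells, and 1079.5, 1108 and 1710.4 in day 17 unsorted against 2801, 2197 and 2418 in day 7 unsorted cells. The unsorted Glce groups did not overlap (-0.94 ± 0.32, limma adjusted p = 0.103).

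Sulf2, the second endosulfatase, gave 39, 161 and 72 in day 17 GFP-positive and 183, 43 and 274 in day 17 GFP-negative cells. It gave 272, 117 and 177 in day 7 GFP-positive and 25, 108 and 100.6 in day 7 GFP-negative cells and did not pass the filter. The matrix proteoglycan Hspg2 (perlecan) differed by -0.72 ± 0.85 and Agrn (agrin) by -0.14 ± 0.27 between the day 17 fractions, and Extl3, an elongation enzyme, by 0.03 ± 0.50. None of these passed.

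Gusb, the lysosomal beta-glucuronidase of heparan sulfate degradation, rose in day 17 unsorted cells, relative to the average of both sorted fractions, by 1.14 ± 0.24 on the log2 scale (limma adjusted p = 0.0316). It gave 4723, 3911 and 2624 in day 17 unsorted cells, against 1086, 1149 and 1631 in GFP-positive and 2631, 2402 and 1481 in GFP-negative cells. Of the 25 genes of the 7 lists tested there, 1 was called, Gusb, beside 1.6% of all probe sets. No alternative fit was run for Gusb, and leaving out 1 sample gave 7 to 465 calls over all probe sets. In the same comparison 5 of 15 tested macrophage markers were called higher, with a median log2 difference of 2.06. Also called higher were 2 of 8 fibroblast markers, while 0 of 5 osteoblast, 0 of 8 skeletal muscle and 0 of 1 endothelial markers were called. The part of these markers in the Gusb value was not tested.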

How the data were processed

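RNA of 18 samples was measured on 44 Affymetrix arrays, of the types called A, B and C. The deposited values are intensities, 1 per probe set and array, whole numbers with a lowest value of 10, and the authors' summarisation and scaling are not given in the sources used here. By the series' probe tables, 29131 of 36701 probe sets had 1 gene. Group means were fitted with limma 3.58.1 (R 4.3.3) to the stacked array types of the 12 sorted samples, or to array A of all 18, with 1 eBayes variance trend and Benjamini-Hochberg adjustment over all probe sets of each of 8 comparisons. Unsorted RNA of Exp106 on B and C, 2 arrays, entered no fit.

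The members and gene lists were chosen with earlier results of these data known. All members are named, and of the lists the 2 largest called changes in each direction plus Sulf2, Hspg2, Agrn, Extl3, Glce and Hs2st1; the last gene of that rule is not analysed here. A list gene was represented by 1 probe set. Fractions of an experiment share its name in the titles. They were paired in the differences within experiments and in the replicate blocks, while the main fit used no pairing. Their deviations from group means correlated at 0.29 to 0.67 on A, 0.11 to 0.51 on B and 0.02 to 0.43 on C. Fractions of different experiments reached 0.165 on A, 0.171 on B and 0.003 on C at day 7. At day 17 they reached 0.558, 0.309 and 0.160. Exp100 lay below these on every type, Exp99 and Exp101 on B, and Exp105 on C. Alternatives were other pseudocounts, filters and scaling, replicate blocks, each sample left out and Exp106 left out. They are given for the members and the counts over all probe sets, not for single genes of the lists. The sorted fit was tested on simulated data. These held no effect shared within an experiment, so that test does not cover pairing. The precision is limited by the number of arrays.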

Additional observations from a re-analysis of the deposited data

Results flagged for a closer look

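For 4 of the 21 tested member probe sets the GFP-positive minus GFP-negative difference had one sign in all 3 experiments of day 17. It had the other sign in all 3 of day 7. The share of all probe sets that meet this rule was not counted, so nothing is read from the number. The difference between the effects was tested in limma for 3 of the 4 probe sets and did not pass. It was 0.83 for Sdc2 95104_at (adjusted p = 0.693), 0.72 for Sdc3 109737_at (adjusted p = 0.963) and 1.97 for Ext1 133682_at (adjusted p = 0.834). For Sdc2 the experiment nearest to 0 was Exp105, at 0.0046, and for Ext1 it was Exp99, at -0.0018. The fourth was Sulf1 116019_at, at -2.59, given without a test because GFP-positive values of Sulf1 chose the gene.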

How the results depend on the processing

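Of 132 member differences, 62 changed sign in at least 1 alternative fit. Other filters, replicate blocks on all samples and the separate variance trends leave the log2 difference unchanged, so they could not change a sign. Of the 132, 60 were larger than their own standard error. Over 954 alternative fits of these 60, such settings included, the sign changed in 4. Ext1 133682_at with the day in GFP-positive cells was -0.0144 without the sample of Exp101. Gpc3 160158_at in day 7 unsorted cells minus the mean of sorted cells was -0.084 without the unsorted sample of Exp101 and 0.60 without that of Exp99, and Sdc1 161370_f_at in day 17 unsorted cells minus the mean of sorted cells was -0.0496 without Exp106, with or without a fixed replicate block; the cause was not tested. Entries of Sulf1 in comparisons that use GFP-positive cells are description. The count of members past the threshold between the day 17 fractions was 0, but 2 with a fixed replicate block (Sulf1 113914_at and Gpc1 104614_at), 2 with a random replicate block (both Sulf1 probe sets) and 2 with the fixed block without Exp106. The same settings called 712, 1008 and 1032 of all probe sets, against 285. For the difference between the GFP effects it was 0, but 1 with a fixed and 1 with a random replicate block (Sulf1 113914_at), with 0.48% and 1.01% of all probe sets against 0.222%. For unsorted cells with the day it was 1, but 0 with values as deposited, 0 with a random replicate block and 0 to 1 on leaving out 1 sample. The replicate block changed no other member call. Without Exp106 the calls of all probe sets were 779 between the day 17 fractions, 206 for the difference of the effects, 387 and 2360 with the day in GFP-negative and GFP-positive cells, 930 in unsorted cells and 668 for day 17 unsorted minus sorted cells, against 285, 49, 96, 1066, 426 and 119. With no filter they were 19, 57 and 67 where 49, 96 and 119 stood for the difference of the effects, GFP-negative cells with the day and day 17 unsorted minus sorted cells. Values as deposited gave 32 and 56 for the first 2 of these. For day 17 unsorted minus sorted cells, the replicate block gave 920 (fixed) and 824 (random), and 941 with the fixed block without Exp106. Leaving out 1 sample gave 121 to 644, 0 to 129, 17 to 70, 457 to 1356, 144 to 402 and 7 to 465 in the order above. The block without Exp106 and a variance trend within each array type (326 calls between the day 17 fractions) were chosen after seeing the data.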

Other observations

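Chondroitin and dermatan sulfate chains are built on the same linker as heparan sulfate, and 12 of the 16 genes in a list of their enzymes were tested. Between the day 17 fractions 1 of 12 was called, beside 1.29% of all probe sets, and the list's median log2 difference was -0.14 against -0.01 over all. It was Dse, the epimerase that makes dermatan sulfate, which fell by 1.55 on the log2 scale (SE 0.30, limma adjusted p = 0.0287). Dse gave 1546, 1249 and 836 in day 17 GFP-positive cells, against 3159, 2659 and 5072 in day 17 GFP-negative cells, and the groups did not overlap. At day 7 it gave 3277, 2747 and 3624 in GFP-positive and 3894, 3029.9 and 4168 in GFP-negative cells. In the same comparison 4 of 9 tested fibroblast markers were called lower, and their part in the Dse value was not tested.

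In GFP-positive cells with the day, 3 of 12 chondroitin genes were past the threshold, beside 4.82% of all. Chsy1, a chondroitin chain synthase, gave 16783, 20959 and 14660.2 at day 17 against 9422, 9556 and 7594 at day 7. Chst15, which sulfates chondroitin, gave 3312, 3926 and 6213 at day 17 against 1591, 2112 and 1279 at day 7. The third was Dse, lower at day 17.

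Unsorted RNA of Exp106 on array B gave Sulf1 intensities as deposited of 3369 by 113914_at and 1209 by 116019_at. The sorted fractions of that experiment gave 679 and 174 in GFP-positive and 1976 and 1624 in GFP-negative cells. This is 1 sample with no replicate check.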
